A study of Mus musculus with 24 samples.

Results

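The retina of mice that had reoxygenated for 16 h after hypoxic preconditioning was compared with the retina of normoxic controls, on the 6 of 24 arrays whose labels give that time point. They comprise all 3 arrays of hypoxic and all 3 of normoxic retinas at 16 h, and no array was chosen by its values. The mice were BALB/c, an albino strain, and all carried the light-sensitive leucine variant of Rpe65 on both alleles. Preconditioned mice breathed 6% oxygen for 6 h and then returned to room air in darkness, whereas normoxic controls were handled in parallel and sampled at the same time. The treatment text of the labels adds a light exposure after reoxygenation, whereas the extraction text has retinas isolated directly at each time point, so the sources do not settle whether the mice of the arrays saw that light. Their age is not given in the sources used here. Each array measured the RNA of 1 pool of 3 retinas from 3 mice, and the 3 pools of a group came from separate mice. The other 18 arrays cover 0, 2 and 4 h of reoxygenation, each with normoxic controls of its own, and serve here to show what had changed earlier. The question was what, if anything, remains in the transcriptome at a time when the protection of photoreceptors by preconditioning has faded.

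Cells sense a lack of oxygen mainly through hypoxia-inducible factor 1 (HIF-1), whose alpha subunit is hydroxylated and degraded while oxygen is present and accumulates when it is missing. HIF-1 then binds a short core sequence near genes for glucose uptake, glycolysis, vessel growth and oxygen sensing, and is destroyed again within minutes of reoxygenation. In the retina, where photoreceptors consume much oxygen, brief hypoxia also induces metallothioneins, which bind zinc and copper and scavenge radicals, and adaptive genes of the stress response.

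3 promoters are shown because the results below follow the genes behind them, namely P4ha2, a HIF-1 target that encodes a collagen prolyl hydroxylase subunit, Mt1, which encodes metallothionein 1, and Hspa5, which encodes the chaperone BiP of the endoplasmic reticulum. All come from RefSeq on build GRCm38.p6, are on the plus strand and span 300 bases around the annotated gene start. The P4ha2 window lies at chr11:54100674-54100973, the Mt1 window at chr8:94178839-94179138 and the Hspa5 window at chr2:34771840-34772139. Capitals mark the letters searched on both strands, which are ACGTG, the HIF-1 binding core, in P4ha2, TGCGCNC or TGCACNC, the core of the metal response element, in Mt1, and the endoplasmic reticulum stress element, CCAAT and CCACG with 9 bases between them, in Hspa5. The marked matches do not overlap each other.
P4ha2: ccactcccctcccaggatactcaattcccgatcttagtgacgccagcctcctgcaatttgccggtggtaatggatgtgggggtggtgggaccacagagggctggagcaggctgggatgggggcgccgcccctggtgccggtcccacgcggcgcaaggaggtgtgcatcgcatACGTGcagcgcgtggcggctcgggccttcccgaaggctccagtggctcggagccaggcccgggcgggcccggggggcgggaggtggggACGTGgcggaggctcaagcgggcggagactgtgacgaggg
Mt1: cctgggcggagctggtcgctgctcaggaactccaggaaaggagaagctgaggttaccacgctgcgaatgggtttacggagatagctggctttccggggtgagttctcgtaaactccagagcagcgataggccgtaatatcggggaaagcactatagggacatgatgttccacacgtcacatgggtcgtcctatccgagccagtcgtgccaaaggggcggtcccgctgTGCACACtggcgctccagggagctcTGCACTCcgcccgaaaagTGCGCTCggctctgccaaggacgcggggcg
Hspa5: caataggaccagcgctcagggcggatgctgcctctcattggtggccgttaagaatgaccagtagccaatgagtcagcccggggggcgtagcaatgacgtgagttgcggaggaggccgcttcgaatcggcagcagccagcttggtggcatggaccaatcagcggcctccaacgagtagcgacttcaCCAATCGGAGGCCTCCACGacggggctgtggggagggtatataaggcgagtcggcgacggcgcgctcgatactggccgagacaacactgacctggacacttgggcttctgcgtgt
The P4ha2 window held 2 matches, the Mt1 window 3 and the Hspa5 window 1. Of all 32851 windows in the table, 19.6% held ACGTG, 25.7% a metal response core and 0.119% the stress element. Among the HIF-1 targets listed here, 22 of 37 windows of 25 genes held ACGTG (59.5%). The metal response core was in 6 of 22 windows of the metallothionein and antioxidant list (27.3%), and the stress element was in 3 of 23 windows of the heat shock and unfolded protein list (13%). A match describes letters in a window and does not show that a factor binds there.

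No probe set, the group of short probes that measures a transcript, passed the test at 16 h. With limma, 0 of 18423 tested probe sets passed an adjusted p of 0.05 (0%), the lowest reaching 0.13. On the 6 arrays the methods' t-test likewise left 0 after adjustment, with 20 at an unadjusted p under 0.001. The shares called by the same limma model were 32.4% at 0 h, 16.6% at 2 h and 1.43% at 4 h, as the plot of all tested probe sets shows. Differences are given throughout as the mean log2 signal of hypoxic minus normoxic pools, so that 1 is a doubling.

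**Figure D1:**
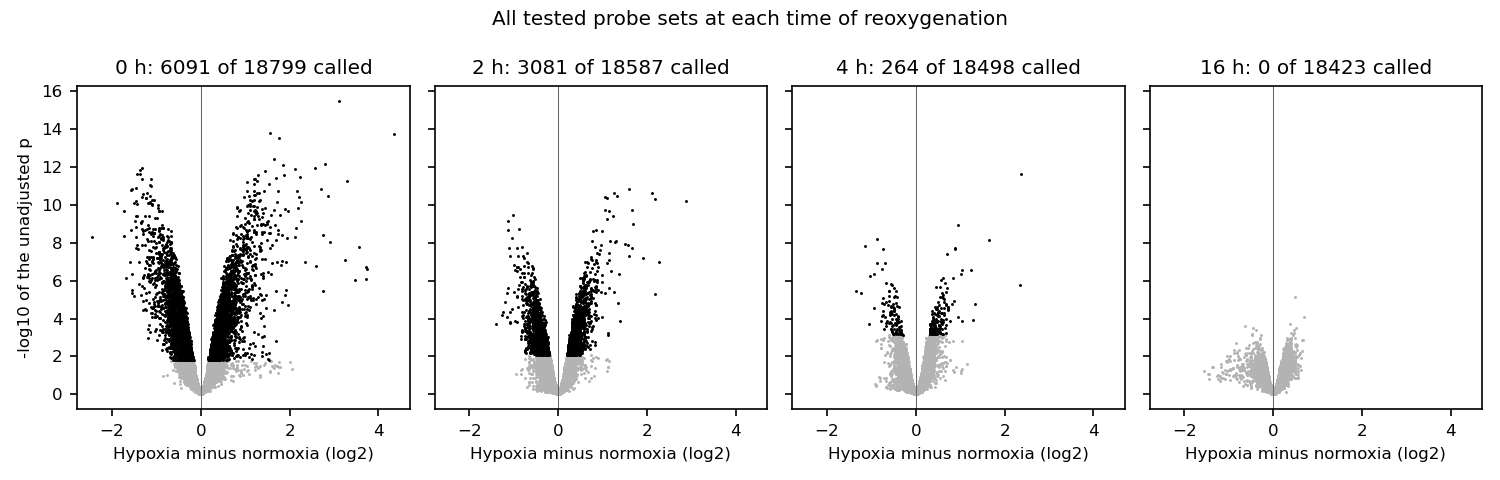
Each point is 1 tested probe set, with the log2 difference between hypoxic and normoxic pools on the x axis and -log10 of the unadjusted limma p on the y axis, in 1 panel per time of reoxygenation. Black points have an adjusted p under 0.05, and their number fell from 6091 directly after hypoxia to 3081, 264 and finally 0 in the panel of 16 h.

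Absence of a call does not show equality, but the intervals bound what the arrays allow. The 95% confidence interval of the difference lay wholly within 1 log2 unit of 0 for 18253 probe sets (99.1%) and wholly within 0.5 for 16321 (88.6%), with a median half-width of 0.21. From the 5th to the 95th percentile the differences ran from -0.19 to 0.23. An unadjusted p under 0.05 was reached by 1172 probe sets (6.36%), of which 749 were higher (4.07%) and 423 lower (2.3%) after hypoxia. This split depended on single pools and on scaling, since it was 588 higher against 586 lower after quantile normalization and 350 against 530 without hypoxic pool 2. In 2037 probe sets (11.1%) the hypoxic pools did not overlap the normoxic ones, with 1266 wholly higher (6.87%) and 771 wholly lower (4.18%). Complete separation of 3 pools from 3 has an exact two-sided permutation p of 0.1, so a share near that arises with no effect. Lack of overlap below therefore describes the pools and is not a test. Euclidean distances over all probe sets averaged 51.3 between the treatments, 48.1 among the hypoxic and 54.5 among the normoxic pools, and normoxic pool 3 lay farthest from the other 5 at a mean of 57.3.

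The gene closest to a call was Slc11a2, which encodes a transporter of ferrous iron and other divalent metals. One of its probe sets had log2 signals of 7.75, 7.91 and 7.93 in the hypoxic and 7.34, 7.50 and 7.31 in the normoxic pools. All hypoxic pools were above all normoxic ones, with a difference of 0.49 ± 0.08 (SE) and an adjusted limma p of 0.13. The adjusted p of this probe set ranged from 0.0644 to 0.996 over the alternative analyses. The other 3 probe sets of Slc11a2 differed by 0.07, 0.09 and 0.12, with an unadjusted p of 0.372 or more, so the difference belonged to 1 of its 4 probe sets.

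Cacna2d4, which encodes an auxiliary subunit of the calcium channels of photoreceptor synapses, had the largest difference upwards among tested probe sets with 1 gene. This probe set measured 8.88, 9.45 and 9.31 after hypoxia and 8.64, 8.67 and 8.28 in normoxia. The pools did not overlap, the difference was 0.69 ± 0.14 (SE), and the adjusted p was 0.771. The 2 other probe sets of Cacna2d4 differed by 0.01 and 0.09.

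The remaining genes with the smallest p among those without overlap each differed by 0.51 or less upwards, with adjusted p of 0.771. Dusp14, a dual-specificity phosphatase, had hypoxic pools at 8.65, 8.83 and 8.77 and normoxic pools at 8.45, 8.37 and 8.30, a difference of 0.38 ± 0.08 (SE). Zfp24, a zinc finger transcription factor, measured 7.88, 7.86 and 7.55 against 7.15, 7.22 and 7.39, a difference of 0.51 ± 0.12 (SE). The other 5 probe sets of Zfp24 ranged from -0.06 to 0.30. Pacs2, a sorting protein of the contacts between endoplasmic reticulum and mitochondria, measured 6.58, 6.80 and 6.71 against 6.08, 6.32 and 6.31, a difference of 0.46. Ip6k2, an inositol hexakisphosphate kinase linked to cell death, measured 10.63, 10.59 and 10.52 against 10.11, 10.30 and 10.13, a difference of 0.40 ± 0.10 (SE). Tbl2 (0.47), Crebzf (0.45), Nupl1, which encodes a protein of the nuclear pore (0.40), and Fgf13, a fibroblast growth factor that stays in the cell (0.49), completed this group. In 6 of these 10 genes, Slc11a2, Cacna2d4, Dusp14, Tbl2, Crebzf and Fgf13, the lowest of the 6 pools was normoxic pool 3, the array farthest from the rest.

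Downwards, the smallest p belonged to Dleu7, a gene first described in a region deleted in leukaemia. Its hypoxic pools measured 7.33, 6.86 and 6.81 and its normoxic pools 7.51, 7.72 and 7.68, a difference of -0.64 ± 0.15 (SE). Ltbp3, which encodes a latent TGF-beta binding protein, measured 8.53, 8.88 and 8.84 against 9.08, 9.18 and 9.35, a difference of -0.45. Its relative Ltbp2, a protein of elastic fibres, measured 6.16, 6.30 and 5.79 against 6.51, 7.22 and 7.05, a difference of -0.85 ± 0.24 (SE). Apex1, the main endonuclease of base excision repair, differed by -0.30, with hypoxic pools of 9.01, 9.16 and 9.07 below normoxic pools of 9.25, 9.40 and 9.49. Rab36 (-0.38), Evpl (-0.48), Fnta (-0.27), Arpc5l (-0.30), Emc4 (-0.45) and Glis1 (-0.37) were likewise without overlap, and the adjusted p was 0.771 for all 10. The largest differences upwards beyond these genes were those of Cxcl12, a chemokine (0.68), Prpf39, a splicing factor (0.64), Arf3 (0.64) and Usp12 (0.63). For Usp12 normoxic pool 3 stood at 6.72 while the other 5 pools lay between 8.34 and 8.86.

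**Figure D2:**
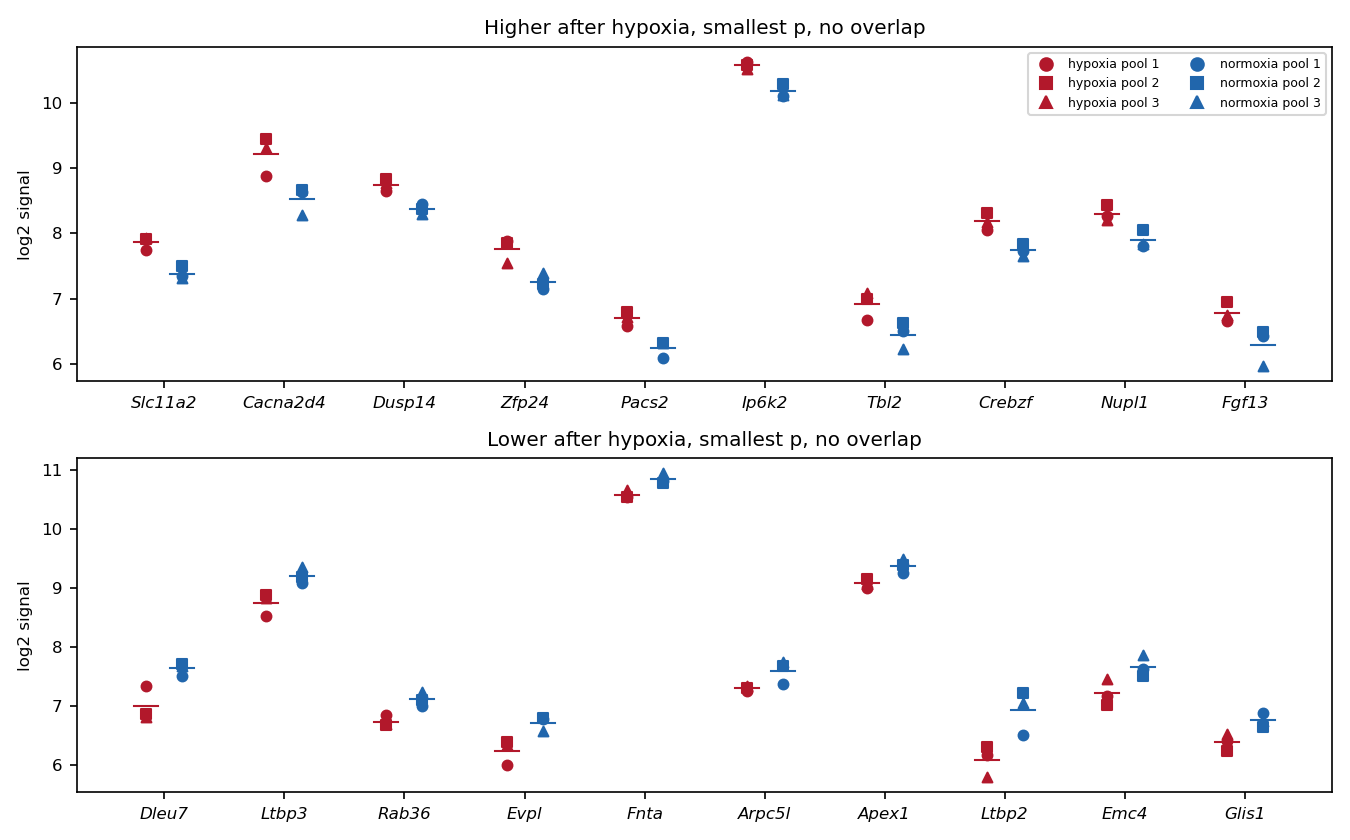
Log2 signal in each pool (y axis) of the 10 genes that were higher (top) and the 10 that were lower (bottom) after hypoxia with the smallest p among genes without overlap, where symbols mark the pool number and lines the mean of 3 pools. All red hypoxic symbols lie on one side of the blue normoxic ones by the way the genes were chosen, and none of the differences passed the adjusted test.

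By their medians, genes that had responded to hypoxia were back near the level of their controls. Since each time point has its own pools and controls, the values at 16 h were not used in choosing the genes that had changed before. Of the probe sets that had risen at 0 h, 2510 were tested at 16 h with a median difference of 0.01, and of those that had fallen 3213 were tested with a median of 0.05, against medians of 0.41 and -0.42 at 0 h, when 15.2% of tested probe sets rose and 17.2% fell. For those changed at 2 h (9.19% rose and 7.38% fell) the medians at 16 h were 0.01 (1613 that had risen) and 0.04 (1361 that had fallen), and for those changed at 4 h (0.876% rose and 0.551% fell) 0.05 (148) and 0.00 (99). The median over all tested probe sets at 16 h was 0.02. The interval at 16 h excluded the earlier estimate in 2251 of the 2510 and 3095 of the 3213 probe sets from 0 h, and in 143 of the 148 and 95 of the 99 from 4 h. That count takes the earlier estimate, which was selected for its size, as free of error. A limma test of the change of effect, with the error of both times, called fewer at an adjusted p under 0.05. It called 1314 of the 2510, 2059 of the 3213, 10 of the 148 and 11 of the 99.

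Single genes with the largest early changes varied more than these medians. Obox6, an oocyte-type homeobox gene, had risen by 4.36 at 0 h and 2.87 at 2 h. At 16 h it measured 5.71, 5.38 and 5.65 after hypoxia and 5.21, 5.63 and 5.97 in normoxia, with overlap of the groups, a difference of -0.02 and a signal too low to be tested. Mt1 had risen by 2.21, 2.17 and 1.66 at 0, 2 and 4 h. Its hypoxic pools at 16 h stood at 9.81, 9.71 and 9.86 and overlapped the normoxic pools at 9.91, 9.97 and 9.78. The difference was -0.09 with an interval from -0.47 to 0.28. Mt2, the sister gene, differed by 0.01 after a rise of 2.26 at 2 h. Irf3, Bub1b and Fbxo30, which had fallen by 1.88, 1.73 and 1.73 on the log2 scale at 0 h, differed at 16 h by 0.00, -0.14 and 0.09. Ak4, an adenylate kinase of mitochondria, had risen by 1.28 at 0 h and fallen by 1.35 at 4 h, and differed by 0.14 at 16 h. Farther from 0 were Ttr and Rgr, which had risen by 3.75 and 3.57 at 0 h. At 16 h they differed by -0.88 (interval from -1.93 to 0.18) and -0.55 (interval from -1.4 to 0.3), both with overlap. Lcn2, which had risen by 2.34 at 4 h, differed by 0.44 at a signal too low to be tested. Ttc14, which had fallen by 1.4 on the log2 scale at 2 h, differed by 0.48 with overlap.

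The change of the effect was tested directly within the same model. Between 0 and 16 h the effect differed in 3929 of 19113 probe sets (20.6%) and between 2 and 16 h in 946 of 18829 (5.02%). For 4 against 16 h the number was 23 of 18820 (0.122%), and 22 of these had the smaller effect at the later time. Of the 23, 22 had also been called at 4 h, and that contrast uses the same arrays. Kif4, a mitotic kinesin, had the largest change of effect. Its effect was 2.36 at 4 h and 0.34 at 16 h, a change of 2.02 ± 0.24 (SE) with an adjusted p of 0.000495. Its pools at 16 h, 5.74, 5.64 and 6.00 against 5.58, 5.33 and 5.44, did not overlap but lay below the signal threshold of 6.69. Among the effects that had been positive at 4 h, Mt1 followed with 1.75, Pros1, which encodes the anticoagulant protein S, with 1.34 and St8sia1, a ganglioside synthase, with 0.96. Camk1d, a calcium-dependent kinase, changed by 0.94 and 0.83 in its 2 probe sets, and Slc20a2, a phosphate transporter, by 0.91. Acadm, which encodes an enzyme of fatty acid oxidation, had risen by 0.94 at 4 h and differed by 0.11 at 16 h. Grm8 and Grm7, presynaptic metabotropic glutamate receptors, had fallen by 1.14 and 0.88 on the log2 scale at 4 h and differed by 0.10 and 0.17 at 16 h.

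In 20 of the 23 the effects at 4 and 16 h lay on opposite sides of 0, and 3 (Kif4, Acadm and one of the Camk1d probe sets) kept their sign. The contrast that chose the 23 uses the values at 16 h, which favours opposite signs. Some effects at 16 h were also close to 0, such as Exoc4 (0.01), the other Camk1d probe set (-0.05) and Pcbp2 (-0.07). Itm2a, Cav2, Marchf1, Xbp1 and Cacna2d4 crossed 0 with pools that did not overlap at 16 h. Itm2a, a membrane protein, had fallen in both probe sets at 4 h (-0.51 and -0.50), and its hypoxic pools at 16 h were 8.64, 8.92 and 8.85 against 8.53, 8.62 and 8.34 in one of them, a difference of 0.31. The other differed by 0.23, also without overlap. Cav2, which encodes caveolin 2, went from -0.37 to 0.21 and Marchf1, a ubiquitin ligase, from -0.49 to 0.20, both without overlap at 16 h. Cacna2d4 was the one probe set whose effect was larger at 16 h, with -0.37 at 4 h, so that the effect at 4 h minus that at 16 h was -1.06 ± 0.20 (SE, adjusted p 0.0315). None of these passed the adjusted test at 16 h itself.

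At the other end, 20 probe sets changed at 4 h had an unadjusted p under 0.05 in the same direction at 16 h. They were 14 of the 148 that had risen (9.46%, beside 4.07% of all tested probe sets) and 6 of the 99 that had fallen (6.06%, beside 2.3%), while another 6 of the 99 were higher at 16 h by the same threshold. For probe sets changed at 0 h the shares in the same direction were 3.07% of those that had risen and 0.529% of those that had fallen, and for 2 h they were 3.66% and 2.2%, all below the shares of all tested probe sets. These genes were picked after their values were seen, and each has an adjusted p of 0.771 or 0.773 at 16 h. In 15 of the 20 the pools did not overlap, which the choice by p on the same arrays favours, and 8 had also risen at 0 and 2 h. Ip6k2 had differences of 0.44, 0.43 and 0.66 at 0, 2 and 4 h before the 0.40 at 16 h. Its second probe set differed by 0.13 at 16 h. Stat3, the transcription factor of cytokine signalling with a role in photoreceptor survival, had 0.77, 0.39 and 0.58 before 0.28 ± 0.13 (SE) at 16 h, where its pools measured 8.97, 8.87 and 8.72 against 8.51, 8.61 and 8.61. Tex30 had 0.24, 0.39 and 0.39 before 0.26 at 16 h, with pools of 8.84, 8.94 and 9.02 above 8.75, 8.57 and 8.71. Atg16l1, a core protein of autophagy, had 0.30, 0.55 and 0.40 before 0.21, and Pes1, a factor of ribosome assembly, 0.21, 0.42 and 0.43 before 0.17. Prkab1, a subunit of the AMP-activated kinase, differed by 0.19, Cpt1a, which brings fatty acids into mitochondria, by 0.21 and Suv39h2, a histone methyltransferase, by 0.26. The other 6 that were higher are Arhgef18, Mgp, Synpo2, Thtpa, Mrpl49 and Ipmk. The 6 that were lower are Insig1 (-0.45), Cpxm1 (-0.41), Arrdc3 (-0.32), Gpc6 (-0.27), Sdk2 (-0.19) and Aifm3 (-0.19). Insig1, the sterol-sensing brake on cholesterol synthesis, had pools of 6.84, 7.35 and 7.23 below 7.70, 7.37 and 7.70.

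**Figure D3:**
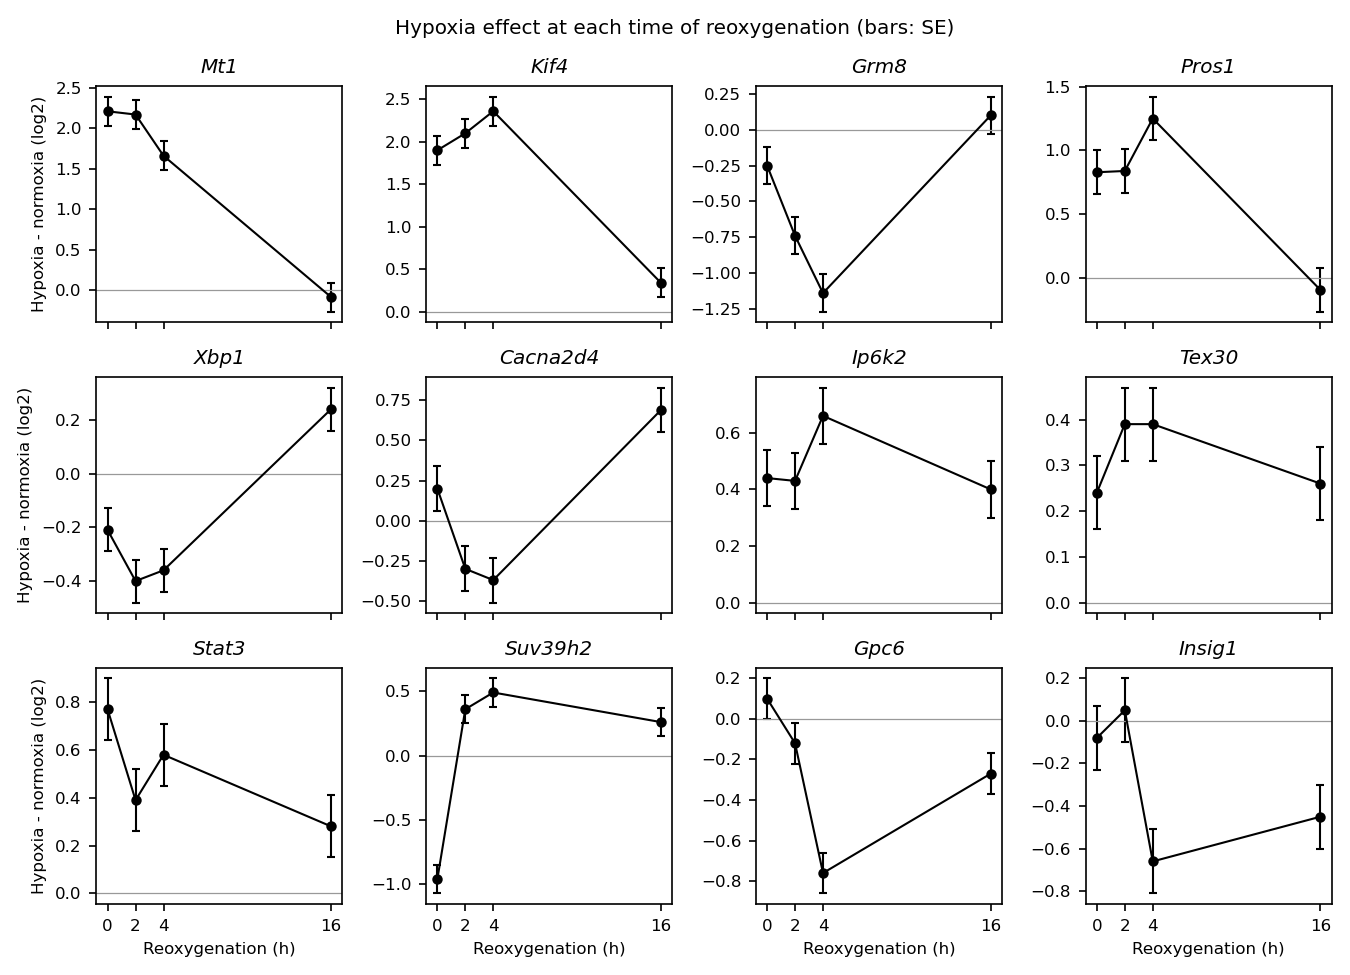
Difference between hypoxic and normoxic pools (y axis, log2, 3 pools against 3, bars are the SE) at 0, 2, 4 and 16 h of reoxygenation (x axis) for genes whose effect differed between 4 and 16 h (Mt1 to Cacna2d4) and for genes with the same direction at 4 and 16 h (Ip6k2 to Insig1), with an axis range of its own in each panel. Mt1 went from 1.66 at 4 h to -0.09 at 16 h, while Ip6k2 stayed between 0.40 and 0.66.

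The HIF-1 targets showed the return as a group, and their median was already 0.01 at 2 h and -0.23 at 4 h (22 tested at each). Of 25 tested at 0 h, 23 had risen (15.2% of all tested probe sets rose then), with a median of 0.83. At 16 h none of 22 tested changed, with a median of -0.01 beside 0.02 for all probe sets. A gene with a normoxic mean below the signal threshold was tested at 0 h only if its hypoxic mean reached it. The filter thus favours rises at 0 h, and the genes tested differ between the times. All 22 intervals lay within 1 log2 unit of 0. Egln1, the oxygen-sensing prolyl hydroxylase, had risen by 1.70 at 0 h and measured 10.23, 10.23 and 10.24 against 10.11, 10.27 and 10.43 at 16 h, with overlap and a difference of -0.03. Its second probe set, which had risen by 1.74 at 0 h, differed by 0.23 without overlap at an unadjusted p of 0.106. Vegfa, the vessel growth factor, differed by -0.03 and Slc2a1, the glucose transporter, by -0.10. Bnip3, a mitophagy receptor, differed by -0.08 after 1.20 at 0 h. P4ha2, whose promoter is printed above, was the 1 of 22 with an unadjusted p under 0.05 (6.36% of all tested probe sets in either direction). Its hypoxic pools of 7.51, 7.85 and 7.69 overlapped the normoxic pools of 7.80, 7.93 and 8.03, a difference of -0.24 after a rise of 1.22 at 0 h. Mxi1, a Myc antagonist, was the 1 of 22 without overlap (0.18, beside 11.1% of all tested probe sets in either direction). In the list of glycolysis and glucose uptake, 11 of 22 genes had risen at 0 h (15.2% of all tested probe sets rose). At 16 h the 22 differed by -0.17 to 0.13 with a median of -0.02 and none at an unadjusted p under 0.05.

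Among metallothioneins and antioxidant enzymes, none of 14 tested genes changed, with a median of -0.07. Sod1, which encodes the cytosolic superoxide dismutase, had pools of 10.46, 10.56 and 10.66 below 10.79, 10.69 and 10.91, a difference of -0.24 and an unadjusted p of 0.0139. Mt3 differed by 0.04, and Pon1, an antioxidant esterase, by -0.09 at a signal below the threshold after a rise of 2.91 at 0 h. Of 8 secreted growth and survival factors tested, 7 were lower in mean (42.4% of all tested probe sets were). Mdk, the growth factor midkine, was the lowest with pools of 7.56, 7.69 and 7.64 below 8.01, 8.12 and 8.01, a difference of -0.41 ± 0.13 (SE) and an adjusted p of 0.771. Of the glucocorticoid-induced genes, 14 of 16 had risen at 0 h (15.2% of all tested probe sets rose), and at 16 h 0 of 13 had an unadjusted p under 0.05, with a median of 0.06. Here too the filter favours rises at 0 h, and the genes tested differ between the times. The Bcl2 family (8 tested), the p53 targets and cyclin-dependent kinase inhibitors (14), the circadian clock genes (17) and the 2 tested mitosis genes also held no gene at an unadjusted p under 0.05, with medians between -0.03 and 0.08.

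Immediate early genes, which are transcribed within minutes of a stimulus, had the highest median of the lists at 0.17. Of 12 tested, 10 were higher in mean (57.6% of all tested probe sets were), 5 of them without overlap (6.87% of all). An unadjusted p under 0.05 was reached by 2, both higher (4.07% of all), but none passed the adjusted test. Nr4a1, an orphan nuclear receptor, measured 8.71, 8.91 and 8.82 against 8.17, 8.37 and 8.57, a difference of 0.44 ± 0.16 (SE). Ier3 measured 11.00, 11.06 and 11.02 against 10.78, 10.81 and 10.70, a difference of 0.26. Fos, a subunit of the AP-1 factor, differed by 0.40 with overlap, since hypoxic pool 1 at 9.79 lay below normoxic pool 1 at 9.96. Junb (0.19), Ier2 (0.13) and Dusp1 (0.22) were without overlap, whereas Jun differed by -0.02. Without the signal filter, which admits all 22 genes of the list, the median was 0.06.

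Genes of the heat shock and unfolded protein responses were higher in mean in 18 of 22 (57.6% of all tested probe sets were), with a median of 0.11, and 4 were wholly higher without overlap (6.87% of all). Xbp1, the transcription factor of the unfolded protein response, measured 11.00, 10.94 and 10.98 against 10.64, 10.75 and 10.82, a difference of 0.24 ± 0.08 (SE) with an unadjusted p of 0.0104 and an adjusted p of 0.771. Its other tested probe sets differed by 0.26 and 0.29, with overlap. At 4 h Xbp1 had fallen by 0.36 on the log2 scale, and the effect at 4 h minus that at 16 h was -0.60 (adjusted p 0.0429). Hspa5, a target of this response whose promoter is printed above, measured 11.75, 12.01 and 12.01 against 11.68, 11.78 and 11.70, a difference of 0.20. Hypoxic pool 1 lay within the normoxic range, and a further probe set of Hspa5 differed by -0.20. Atf4 (0.16), Herpud1 (0.14) and Asns (0.09) did not overlap, and Dnajb9 (-0.04) and Hsp90b1 (0.00) showed no such difference in mean.

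Cholesterol synthesis genes had a median of -0.02 over 20 tested, with Sc5d, which encodes a desaturase of the pathway, at 0.32 and Insig1 at -0.45. Of 11 interferon response genes 8 were lower in mean (42.4% of all tested probe sets were), with Ifi27 at -0.50 without overlap, and Stat2 was higher at 0.29 without overlap. The mitochondrial respiratory chain and ATP synthase (76 tested) had a median of 0.02. Of the 76, 2 had an unadjusted p under 0.05, Cox7a2 (-0.20) and Atp5e (-0.19), both lower (2.3% of all tested probe sets were). The cytosolic ribosomal proteins (43 tested) had a median of -0.03, and 3 of the 43 had an unadjusted p under 0.05, all lower (2.3% of all tested probe sets were).

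**Figure D4:**
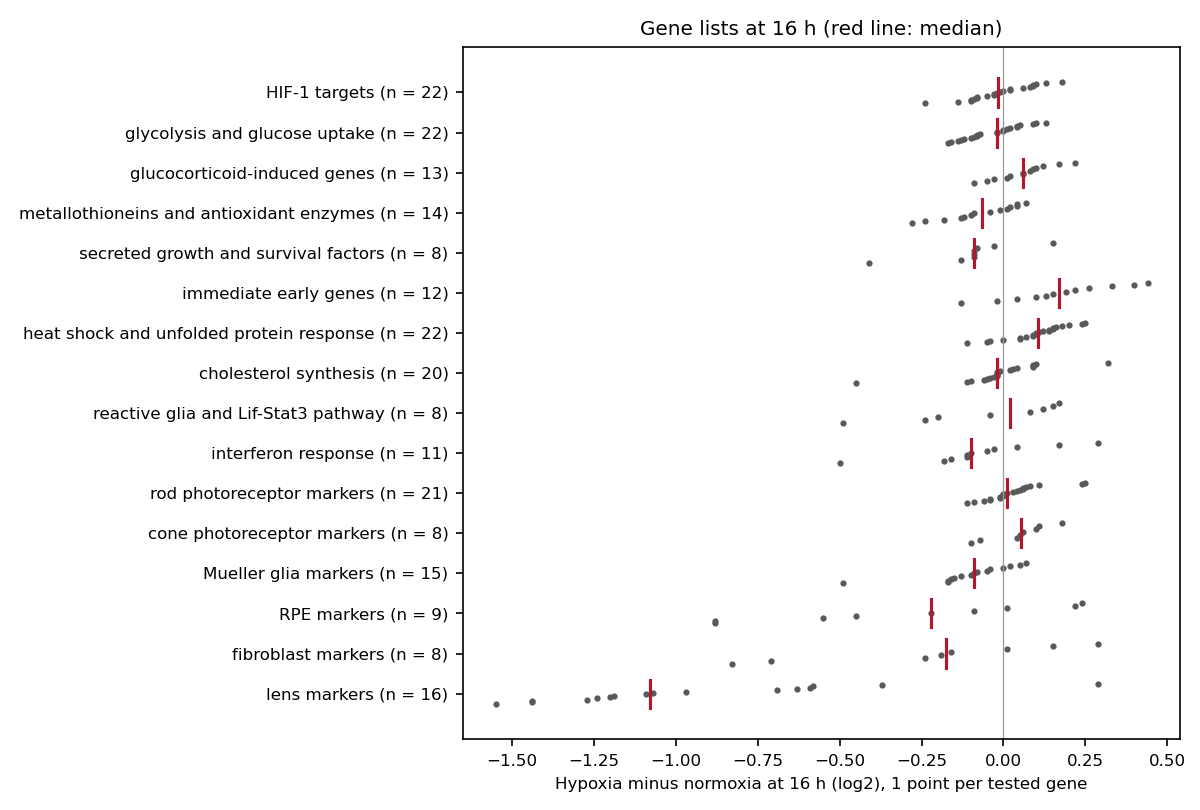
Difference between hypoxic and normoxic pools at 16 h (x axis, log2) of each tested gene (points) of 16 gene lists (y axis), with the median as a red line. The medians lay between -0.22 and 0.17 except for the lens markers, at -1.08.

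The genes that the study followed by real-time PCR were chosen by it on these samples, so their early changes are not independent evidence. On the arrays, 18 of 25 tested had risen at 0 h (15.2% of all tested probe sets rose), and none of 19 changed at 16 h, with a median of -0.08. The genes tested differ between these times, since a gene dim in normoxia was tested at 0 h only if its hypoxic mean reached the threshold. The filter thus favours rises at 0 h. Cdkn1a (p21, an inhibitor of the cell cycle) had risen by 3.29 at 0 h and had hypoxic pools of 5.87 to 6.42 and a difference of 0.13 at 16 h, below the threshold and with overlap. Bcl2l10, an anti-apoptotic relative of Bcl2, and Adm, the vasodilator adrenomedullin, likewise lay below the threshold, with differences of 0.07 and 0.06. H3f3b, which encodes the replacement histone H3.3, measured 7.75, 7.88 and 7.42 against 7.14, 7.07 and 7.39, without overlap, a difference of 0.48 and an unadjusted p of 0.0122. Timp3, a metalloproteinase inhibitor, measured 9.09, 9.21 and 9.02 against 9.35, 9.58 and 9.39, without overlap, a difference of -0.33 after a rise of 1.32 at 0 h. Its other tested probe sets differed by -0.19 and 0.05, with overlap. Hmgb2, a chromatin protein, also differed by -0.33 without overlap, after a rise of 1.74 at 0 h. The 2 probe sets that match Rbm3, a cold-shock RNA-binding protein, and its pseudogene differed by -0.20 and 0.50, so they disagreed in sign.

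The largest differences at 16 h were all downwards. 27 tested probe sets were over 2-fold lower (0.147%) and none was over 2-fold higher, yet none of the 27 had an adjusted p under 0.771. They name 22 single genes, and 10 of the probe sets belong to genes of the lens marker list. Known from the lens are the crystallins Cryba4 (-1.27), Crygb (-1.24), Crygd (-1.20), Crybb3 (-1.09) and Crygn (-1.13), the lens membrane proteins Lim2 (-1.55), Mip (-1.48 and -1.44) and Gja3 (-1.19), and the beaded filament proteins Bfsp1 (-1.44) and Bfsp2 (-1.07), of which only Crygn is not on that list. Further genes that are not on it are Grifin (-1.25), Tmem40, B3gnt5, Ogn, Nid1, Sfrp1, Cd24a, Fabp5, Tubb6, S100a4, Nupr1 and Vit. A probe set that matches both Crygc and Crygb differed by -1.17 and is not counted among the 10.

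The pools did not divide by treatment for these probe sets. Lim2 measured 8.26, 9.94 and 7.64 after hypoxia and 10.53, 10.68 and 9.28 in normoxia, so that hypoxic pool 2 lay above normoxic pool 3. Crygd measured 7.72, 11.11 and 9.29 against 11.03, 10.95 and 9.75, with hypoxic pool 2 as the highest of all. Over the 27 the mean log2 signal was 8.20, 9.72 and 7.94 in the hypoxic and 9.99, 10.19 and 9.26 in the normoxic pools. The lowest pool was hypoxic pool 3 in 22 and hypoxic pool 1 in 5, and 25 of the 27 overlapped. Cd24a and one of the 2 probe sets of Sfrp1 were without overlap. The number over 2-fold was 13 without hypoxic pool 1, 69 without hypoxic pool 2, 7 without hypoxic pool 3, 13 without normoxic pool 2 and 51 without normoxic pool 3.

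**Figure D5:**
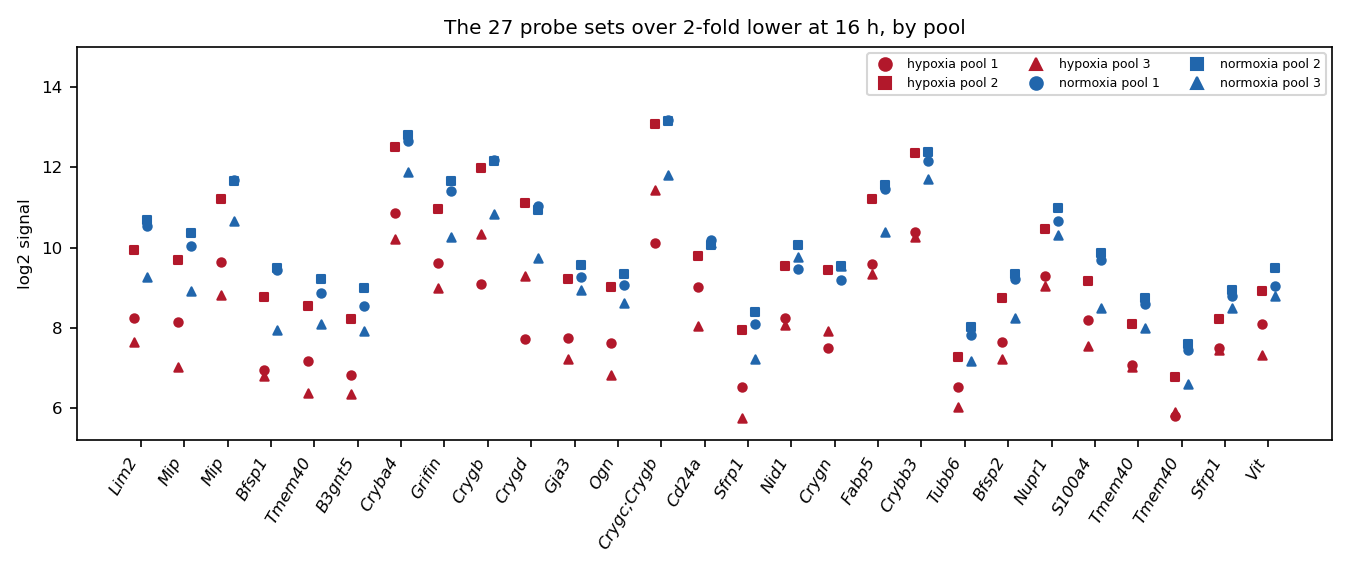
Log2 signal (y axis) in each of the 6 pools of the 27 probe sets that were over 2-fold lower after hypoxia at 16 h, ordered by difference and named by gene (x axis), where colours give the treatment and symbols the pool number. Hypoxic pools 1 and 3 lie lowest, and hypoxic pool 2 reaches the lowest normoxic pool or lies above it except in Cd24a and the second Sfrp1 probe set.

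The whole lens marker list was lower in mean in 15 of 16 tested genes (42.4% of all tested probe sets were) with a median of -1.08. At 0, 2 and 4 h the list had medians of 1.62, -0.27 and -0.42, with no gene called at those times. A large difference of the lens list was therefore not particular to 16 h, and at 0 h it went the other way. The summed linear signal of the list at 16 h was 60553, 105828 and 46588 in the hypoxic pools and 115286, 120010 and 86477 in the normoxic ones. The member with the highest mean, Cryaa, measured 13.71, 14.13 and 13.53 against 14.21, 14.27 and 14.01, with overlap. In pooled tissue, fewer cells of a type and less RNA per cell cannot be told apart. With the mean of these lens markers as a covariate in the limma model, 1105 probe sets had an unadjusted p under 0.05, against 1172 without it. None was over 2-fold in that fit, whose covariate is built from the list that holds 10 of the 27. Beyond that fit, the part of lens tissue in the other differences was not tested. Markers of the retinal pigment epithelium (RPE), which adheres to the retina, had a median of -0.22 over 9 tested genes. Ttr, the thyroxine carrier, differed by -0.88, with hypoxic pool 1 at 8.40 and the other 5 between 9.50 and 10.48, and Rpe65, the visual cycle isomerase, by -0.88, with hypoxic pool 1 at 5.67 and the others between 7.07 and 8.03. The 2 of 9 members at an unadjusted p under 0.05 were higher (4.07% of all tested probe sets were). They were Krt18, a keratin of simple epithelia, by 0.24 without overlap and Rrh, an opsin of the RPE, by 0.22 with overlap. The summed RPE signal was 3694, 4608 and 4362 against 4967, 5081 and 3911, so that the groups overlapped. Fibroblast markers had a median of -0.18 over 8 tested genes, with Fmod, a proteoglycan of connective tissue, at -0.71 and Mgp, an inhibitor of calcification, at 0.29, both without overlap. No probe set of a single erythroid gene reached the threshold, but the haemoglobin probe sets that match several genes did. All 4 were higher in mean after hypoxia (57.6% of all tested probe sets were). The beta globin probe set measured 12.18, 12.08 and 11.63 against 11.27, 11.65 and 11.19, where the pools overlapped and the difference was 0.59. The 3 alpha globin probe sets differed by 0.45, 0.47 and 0.63, and the last of them was without overlap. Haemoglobin is the oxygen carrier of red blood cells, and the part of blood in the other differences was not tested. These probe sets were looked up after the values were seen.

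Markers of retinal cell types had medians between -0.13 and 0.06. The rod photoreceptor list had a median of 0.01 over 21 tested genes, none at an unadjusted p under 0.05. Sag, which encodes rod arrestin, measured 14.37, 14.39 and 14.39 against 14.37, 14.28 and 14.34, where the highest signal of each array was 14.37 to 14.45, so that this probe set has little room to show a difference upwards. Below that limit, Nrl, the transcription factor of rod fate, measured 13.57, 13.58 and 13.68 against 13.61, 13.55 and 13.77, with overlap and a difference of -0.04. Pde6a, a rod phosphodiesterase subunit, differed by 0.07. Of the 23 rod markers listed, 21 had a probe set that names 1 gene, and all 21 reached the threshold for testing, on arrays labelled as retina. Cone markers had a median of 0.06 over 8, bipolar cell markers 0.03 over 10, amacrine cell markers 0.02 over 14, horizontal cell markers -0.03 over 4 and ganglion cell markers 0.00 over 12. Among ganglion cell markers, Ebf1 (-0.39) and Gap43 (-0.16) were lower without overlap at an unadjusted p of 0.0105 and 0.0319, although the other 3 tested probe sets of Ebf1 lay between -0.06 and 0.08. Endothelial markers had a median of -0.05 over 8 and microglia and macrophage markers -0.13 over 4. Mueller glia markers were lower in mean in 11 of 15 (42.4% of all tested probe sets were) with a median of -0.09. Glul, the glutamine synthetase of these cells, measured 12.83, 12.76 and 12.84 against 12.95, 12.93 and 13.05, a difference of -0.16 without overlap, while its second probe set differed by 0.04. Vim, which encodes vimentin and is also abundant in the lens, measured 11.23, 11.68 and 11.01 against 11.87, 12.06 and 11.47, a difference of -0.49 with overlap. Its other probe sets differed by -0.51 and -0.61, both without overlap.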

How the data were processed

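The values were deposited as log2 signals that the authors, per the labels, computed by RMA (background correction, quantile normalization, summary of probes into probe sets). No version is given, and the gene lists of the study came from GCRMA values, which were not used here. From the 45101 probe sets, 64 controls were left out. With limma 3.58.1 in R 4.3.3, 1 linear model with a mean for each of 8 groups was fitted to all 24 arrays (16 residual degrees of freedom), so that the spread is shared between groups, and moderated over all probe sets. A probe set was tested if 1 of its treatment means was at least 6.69, where the bimodal distribution of signals has its trough, which left 26614 untested at 16 h. Benjamini-Hochberg adjustment covered all probe sets tested, and unadjusted p are limma's. In lists, the brightest probe set that names 1 gene stands for the gene. Depth of an array has no count, so its number of replicates limits precision, and 3 pools against 3 cannot go below an exact two-sided permutation p of 0.1. Named genes are the 10 higher and 10 lower with the smallest p and no overlap, the 5 highest and lowest differences, the genes measured by real-time PCR, the 3 largest rises and falls at 0, 2 and 4 h, up to 2 genes per list, Obox6, Rbm3 and abundant lens, RPE and rod markers. Further genes in the paragraphs on kept and lost effects, on the gene lists on the lens and on haemoglobin were named after their values were seen. The comparison, the members and the lists were chosen with earlier results of these data known. Alternatives were other filters, scalings and spreads, blocks, subsets of arrays and the lens covariate. The highest correlation of 2 arrays was 0.997. Scripts were tested on simulated data.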

Additional observations from a re-analysis of the deposited data

Results flagged for a closer look

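The results listed here drew attention because the effect of hypoxia differed between an earlier time point and 16 h by a test of that difference (limma, adjusted p under 0.05). No single pool was screened as an outlier, since groups of 3 are too small. The number of such probe sets was 3929 for 0 h, 946 for 2 h and 23 for 4 h.

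Against 4 h, the effect at 4 h minus the effect at 16 h was positive for Kif4 (2.02), Mt1 (1.75), Pros1 (1.34), St8sia1 (0.96), Camk1d (0.94 and 0.83), Slc20a2 (0.91), Arsg (0.84), Acadm (0.83), Car14, a carbonic anhydrase of Mueller glia (0.79), and Pcbp2 (0.77). It was negative for Grm8 (-1.24), Cacna2d4 (-1.06), Grm7 (-1.04), a probe set with no gene named here (-0.95), Itm2a (-0.81 and -0.73), Tmtc4 (-0.80), Exoc4 (-0.74), Marchf1 (-0.69), Xbp1 (-0.60), Cav2 (-0.59) and Negr1 (-0.58). Cacna2d4 is the exception in that its effect was not called at 4 h and was larger at 16 h.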

How the results depend on the processing

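No alternative gave a call at 16 h by adjusted p. Only the methods' t-test at an unadjusted p under 0.001, a looser rule, counted 20. The smallest adjusted p among the alternatives was 0.0644, without hypoxic pool 1. The count at an unadjusted p under 0.05 was 2294 with no signal filter, which tests more probe sets, 637 with the replicate block within 16 h and 758 with the 6 arrays of 16 h alone, which leave fewer degrees of freedom, and 880 to 1522 on leaving out a pool. The count without overlap was 4111 with no signal filter and 3426 to 5025 on leaving out a pool, where fewer pools separate more easily. The count over 2-fold was 47 with array quality weights, 0 with the lens marker covariate, which is built from the list that holds 10 of the 27, and 7 to 69 on leaving out a pool. The effect differed between 4 and 16 h in 15 probe sets with no filter, 62 with a trended and robust spread, 57 with array quality weights and 16 to 26 on leaving out a pool, and between 2 and 16 h in 511 to 901 on leaving out a pool, 511 without hypoxic pool 2. The listed genes at an unadjusted p under 0.05 were 26, and 40 with a trended and robust spread and 42 with array quality weights. The causes were not tested where none is named. Same-numbered pools at 16 h correlated at -0.267, 0.104 and -0.108 after removal of group means and 1 of 6 arrays correlated best with its own number, so the numbers were not taken as pairs, and a replicate block over all 24 arrays gave 0 calls and 1333 at an unadjusted p under 0.05. No named gene passed the adjusted test at 16 h under any alternative.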
